A study of Mus musculus with 3 samples.

Results

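CD8 T cells were taken from 3 single-cell RNA-seq libraries of mouse left lung leukocytes. A kept cell was called a CD8 T cell when it held at least 2 unique molecular identifiers (UMIs, 1 per captured RNA molecule) of Cd3d, Cd3e, Cd3g, Trac and Trbc2 together, at least 1 of Cd8a plus Cd8b1 and none of Cd4. Cells with more than 1 B cell UMI, with any UMI of the natural killer (NK) genes Ncr1, Klrb1c or Klre1, or with 0.5% or more of their UMIs from S100a8, S100a9 and Lyz2 were left out. The cells were therefore chosen by measured values, and their Cd3, Trac, Trbc2, Cd8 and Cd4 levels describe the rule. Levels of its B cell and NK genes and of S100a8, S100a9 and Lyz2 were limited by it as well. The rule found 969 CD8 T cells among 21029 kept cells. By library, 193 came from naive lung, 393 from grafts at 2 hours and 383 from grafts at 3 days.

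The study examined recipient leukocytes that enter a lung graft after ischemia. A left lung of a C57BL/6 (B6) CD45.2 donor was held for 60 minutes at 4 °C and 45 minutes at 28 °C, then transplanted into a genetically matched B6 CD45.1 recipient and reperfused for 2 hours or 3 days. The naive library came from the left lung of unoperated B6 mice. Cells of 2 mice were pooled for each library and sorted for CD45.1, the recipient form of CD45. A CD45.1 sort is named for the naive sample too, but it contained no transplanted cells, so what was sorted there is unclear. No animal carried an engineered deletion or received a drug in these 3 groups. With 1 library per condition, no difference between conditions can be tested, and a pool, its sort and its condition cannot be told apart. The naive library was counted with Cell Ranger 7.1.0 and the other libraries with 6.0.0, so that the program version and the naive condition cannot be told apart either.

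CD8 T cells recognize peptides on MHC class I through the T cell receptor and the CD8 coreceptor, a dimer encoded by Cd8a and Cd8b1. Naive cells recirculate through lymph nodes using CCR7 and keep the transcription factors TCF-1 (Tcf7) and LEF-1 (Lef1). Memory and effector cells carry more CD44 and prepared cytotoxic machinery, such as granzymes, perforin and the chemokine CCL5, and can enter inflamed tissue such as the lung. RUNX3 and the T-box factors T-bet (Tbx21) and eomesodermin (Eomes) are known regulators of that cytotoxic program.

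The upstream sequences of 2 cytotoxic genes that were higher in CD8 than in CD4 T cells are shown here, because their levels recur in the results below. Both are from RefSeq on GRCm38.p6 and cover the 120 bases before the annotated start, 5′ to 3′ on the gene's strand. Capitals mark a letter match to a RUNX motif, TGTGGTT or its reverse complement AACCACA, in Gzma, and to a T-box motif, AGGTGTGA, in Nkg7. Gzma lies on the minus strand at chr13:113100982-113101101, and Nkg7 on the plus strand at chr7:43437018-43437137.
Gzma: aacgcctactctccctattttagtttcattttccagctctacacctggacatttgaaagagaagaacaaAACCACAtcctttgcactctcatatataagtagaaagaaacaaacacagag
Nkg7: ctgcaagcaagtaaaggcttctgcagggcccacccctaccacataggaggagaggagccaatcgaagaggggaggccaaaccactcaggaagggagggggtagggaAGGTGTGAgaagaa
The Gzma match begins 51 bases and the Nkg7 match 14 bases before the start. Such matches are descriptions of letters, not shown binding sites. Over 250 bases before the start, on both strands, 5.08% of all RefSeq genes held the RUNX letters and 1.30% the T-box letters. Of the 342 genes higher in CD8 T cells (below), 252 had a promoter in the table, and 6.35% and 2.38% of these held the RUNX and the T-box letters. The shares were 5.26% and 2.79% among 323 genes higher in CD4 T cells and 3.93% and 0.877% among the 7184 tested genes with a promoter in the table. These shares are descriptions and were not tested.

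Depth differed widely. A CD8 T cell had a median of 11157 UMIs and 3057 genes in naive lung, 1413 UMIs and 635 genes at 2 hours, and 9411 UMIs and 2480 genes at 3 days. The CD8 T cells together held 2200555, 617789 and 3746199 UMIs in that order. The median share of mitochondrial UMIs was 3.73%, 4.38% and 5.06%. CD8 T cells were 7.97% of kept cells in naive lung (95% Clopper-Pearson interval 6.92% to 9.12%), 3.82% at 2 hours (3.46% to 4.21%) and 4.60% at 3 days (4.16% to 5.07%). All intervals given for shares and levels cover counting error only. Since 1 UMI of Cd8 is easier to catch in a deep cell, the share was also taken after every cell was thinned to 500 UMIs before the rule was applied. It was then 1.11%, 0.937% and 0.745%, with overlapping intervals, so that a difference in abundance between the libraries was not detectable at this depth. Cells at the edge of the rule were mostly of the 2-hour library. There 255 members held exactly 1 UMI of Cd8, against 19 in naive lung and 36 at 3 days, and 1510 T cells held neither Cd8 nor Cd4 and stayed outside, against 94 and 167. T cells with both coreceptors, also outside, numbered 14 in naive lung, 3 at 2 hours and 25 at 3 days. The NK gene rule turned away 25, 8 and 74 cells that otherwise met it. Exactly 2 UMIs of the T cell genes were held by 2, 64 and 0 members, and 2, 40 and 4 cells fell short by 1. A further 2, 17 and 31 cells were outside for their neutrophil and Lyz2 share only.

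Among T cells with 1 coreceptor, CD8 T cells made up 51.9% in naive lung (46.7% to 57.1%), 78.3% at 2 hours (74.4% to 81.8%) and 56.3% at 3 days (52.5% to 60.1%). When all cells were thinned first, the share was 77.1% (59.9% to 89.6%), 76.7% (68.1% to 83.9%) and 83.8% (73.4% to 91.3%). The higher value at 2 hours was thus not kept at equal depth, where the intervals were wide. Over all T cells, with or without a coreceptor UMI, the ratio of Cd8 to Cd4 UMIs needs no call per cell. It was 3.05 (2.75 to 3.39) in naive lung, 5.07 (4.17 to 6.21) at 2 hours and 3.64 (3.35 to 3.97) at 3 days. By this measure 2 hours stayed the highest.

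The label was checked against Cd8a, Cd8b1 and Cd3e as counts of the summed cells scaled to 1000000 UMIs (CPM). Cd8a was at 199.9 CPM in naive lung, 193 at 2 hours and 199.9 at 3 days, against 5.06 or less in NK cells. Cd8b1 was at 443, 803 and 449.8 CPM. Cd3e, part of the CD3 signalling complex, was at 435, 644 and 402 CPM. The 3 genes were thus present in each library, as the rule required. Cd8b1, which marks conventional CD8αβ cells, was absent from 1 of 65 cells with 3 or more Cd8a UMIs in naive lung and from 2 of 121 at 3 days. At 2 hours only 5 cells had that many, 2 of which lacked it, so the depth there does not allow the check. No barcode of a CD8 T cell occurred in more than 1 library, although 23 barcodes of all deposited cells were shared between the 2-hour and 3-day libraries. A doublet caller (Scrublet) marked 1, 14 and 1 of the CD8 T cells.

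RNA of other cell types was present in the CD8 T cells and moved with the library. The 13 neutrophil markers summed to 96.8 CPM in naive lung, 550.4 at 2 hours and 689 at 3 days. Their most abundant genes were S100a9, Cxcl2 and S100a9, and 2, 1 and 0 of the 13 were at 0. The 17 monocyte and macrophage markers summed to 153, 298 and 970 CPM. Cst3, Cst3 and Lyz2 led, and 6, 8 and 0 of the 17 were at 0. The 14 B cell markers summed to 193, 856 and 413 CPM, with Ighm leading in naive lung and Cd74 in the others, and 0, 1 and 0 markers at 0. In CD4 T cells the neutrophil markers summed to 113, 613 and 757 CPM, the monocyte and macrophage markers to 155, 355 and 1499 CPM, and the B cell markers to 249.8, 843 and 1441 CPM. At 3 days the B cell sum was thus far higher in CD4 than in CD8 T cells. At 2 hours, the 5 highest of the 393 cells, taken for each list on its own, held much of these UMIs. Their share was 76.1% of the monocyte and macrophage UMIs, 67.9% of the B cell UMIs and 48.5% of the neutrophil UMIs. The 12 NK markers summed to 137, 354 and 340 CPM, led by Gzma, Gzma and Tyrobp, while in NK cells they reached 19241, 18473 and 18350 CPM. In CD8 T cells 3, 6 and 4 of the 12 were at 0, and the rule itself sets Ncr1, Klrb1c and Klre1 to 0. Part of that gap is therefore fixed by the rule. The 10 CD4 T cell markers summed to 292, 264 and 181 CPM, against 1309, 1637 and 1192 CPM in CD4 T cells. The list holds Cd4 itself, which the rule sets to 0 in CD8 T cells and which made up 268, 829 and 266 CPM of the sums in CD4 T cells. Icos led in the naive and 2-hour libraries and Tnfsf8 at 3 days, with 2, 3 and 1 of the 10 at 0, Cd4 included. Gamma-delta and innate-like markers were at 29.1, 21.0 and 33.6 CPM, led by Trdc, Cd163l1 and Trdc, and 4, 7 and 3 of 12 were at 0. Platelet and erythroid markers were at 7.27, 4.86 and 4.54 CPM, led by Hbb-bs, Hba-a1 and Pf4, with 3, 6 and 6 of 7 at 0. Endothelial and epithelial markers were at 208, 82.6 and 96.1 CPM, all led by Pecam1, which leukocytes also carry, with 2, 5 and 0 of 10 at 0.

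In the effector and memory list 15 of 30 tested genes were higher in CD8 than in CD4 T cells, and 5 of 7 checkpoint genes and 9 of 9 CD4 T cell markers were higher in CD4 T cells. This is the comparison that can be tested, because both cell types were present in all 3 libraries. The lists were chosen with earlier results of these data known and share members, such as Ctla4, so that their counts are not independent. The summed counts of CD8 and CD4 T cells (585 cells, 179, 109 and 297 by library) were compared with edgeR's quasi-likelihood test with the library as a block, after Cd8a, Cd8b1 and Cd4 were removed. Each library is 1 replicate pair, so that p-values reflect how steady a difference was across the 3 libraries. At a Benjamini-Hochberg adjusted p under 0.05, 342 of 9002 genes were higher in CD8 T cells (3.80%) and 427 were higher in CD4 T cells (4.74%). Median UMIs of the CD4 T cells were 8963, 1216 and 7566, below those of the CD8 T cells in each library. Together the CD4 T cells held 1641352, 143579 and 2414567 UMIs, so that CD4 values of low genes at 2 hours rest on few UMIs. Where a gene is said below to go the other way at 2 hours, that direction was not tested and may lie within counting error.

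Ly6c2, which encodes a Ly6C surface protein of memory and cytotoxic CD8 T cells, had the smallest p among the genes higher in CD8 T cells. Its level was 351 CPM in CD8 and 29.9 CPM in CD4 T cells of naive lung, 227 and 20.9 CPM at 2 hours, and 329 and 21.9 CPM at 3 days. The estimated log2 difference was 3.79 ± 0.15 (SE, n = 3 libraries), with an edgeR adjusted p of 4.54e-15. Ly6c2 and Ly6c1 are near-identical paralogs, and Ly6c1 went the opposite way, at 0.909, 4.86 and 1.07 CPM in CD8 T cells against 79.2, 223 and 43.1 CPM in CD4 T cells. How reads shared by both genes were assigned is uncertain, and both values carry that limit.

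Lectin-like receptors and granule genes were among the others. Klrd1, which encodes the CD94 subunit of NKG2 receptors, was at 289.5, 173 and 202 CPM in CD8 T cells and 27.4, 6.96 and 14.1 CPM in CD4 T cells. Its log2 difference was 3.70 ± 0.17 (edgeR adjusted p = 2.60e-14). Ctsw, a cathepsin of cytotoxic cells, was at 102, 63.1 and 134 CPM against 25.0, 13.9 and 21.1 CPM. Nkg7, a granule protein needed for cytotoxic degranulation, was at 272, 337 and 327.5 CPM against 86.5, 13.9 and 80.8 CPM. In each library the CD8 value lay above all CD4 values for these genes. Gzma, which encodes granzyme A and whose upstream sequence stands above, was at 97.7, 206 and 52.1 CPM against 22.5, 27.9 and 5.38 CPM, a log2 difference of 2.64 ± 0.21 (edgeR adjusted p = 1.89e-09). Gzma is also abundant in NK cells, at 9823, 8282 and 9484 CPM.

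The other genes that led the CD8 side were Bend4 (log2 difference 4.53), Fam241a (2.94), Dnajc15 (1.73), Epsti1 (1.63) and Pakap (2.57). Bend4 was at 134, 184.5 and 82.5 CPM in CD8 T cells and at 3.05, 6.96 and 5.80 CPM in CD4 T cells. Fam241a was at 484, 248 and 199.9 CPM against 49.4, 76.6 and 32.3 CPM. These genes do not belong to the cytotoxic list, and no clause on their function is given.

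Of the effector and memory list, 30 of 32 genes were tested, 15 were higher in CD8 T cells and 1, Cd44, was lower. The list's median log2 difference was 1.03, against 0.00 over all genes tested. Besides the genes above, the 15 included Gzmb and Gzmm, further granzymes, with log2 differences of 2.13 and 4.80. Prf1, which encodes perforin, differed by 1.65, Eomes by 3.40, the interleukin 2 and 15 receptor chain Il2rb by 1.17 and Ccl5 by 1.70. Ccl5 was at 1005, 3577 and 1722 CPM in CD8 T cells and 606, 348 and 562 CPM in CD4 T cells (edgeR adjusted p = 3.09e-06), and it missed the threshold with DESeq2 (adjusted p = 0.133). Runx3, the transcription factor that sets the CD8 lineage, was at 263, 134 and 257 CPM against 83.5, 62.7 and 123 CPM, a log2 difference of 1.39 ± 0.13 (edgeR adjusted p = 3.18e-08). Cd44 was at 60.9, 43.7 and 124 CPM in CD8 T cells against 97.5, 20.9 and 185 CPM in CD4 T cells. In the 2-hour library, with few CD4 UMIs, Cd44 went the other way. Its adjusted p was 0.0464 in edgeR and 1 in DESeq2.

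**Figure D1:**
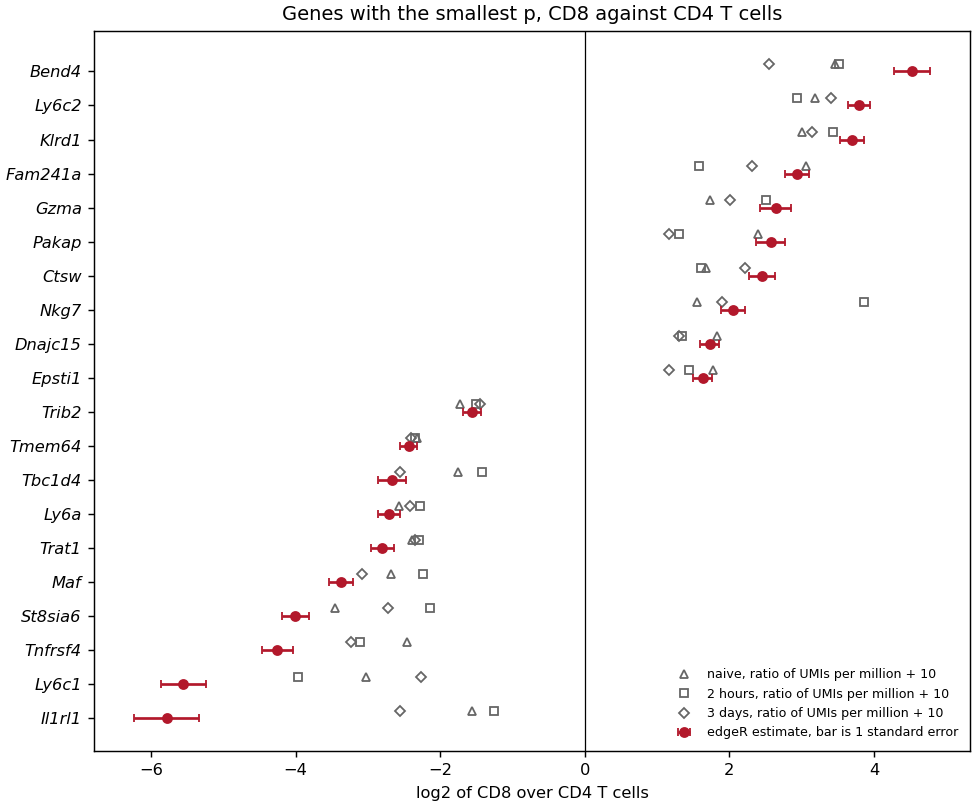
The 10 genes with the smallest p in each direction in the comparison of CD8 with CD4 T cells. Red points are edgeR's log2 estimates with bars of 1 SE, and open symbols are the log2 ratios of CPM + 10 in each of the 3 libraries. All open symbols stand on the same side of 0 as the estimate, and the added 10 CPM draws those of low genes, such as Il1rl1, toward 0.

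Genes lower in CD8 T cells included 9 of 9 tested CD4 markers, with a median log2 difference of -2.70. Tnfsf8 lost the threshold in 5 of 11 alternatives and Zbtb7b in 3 of 8. Among the 9 markers, Tnfrsf4, the costimulatory receptor OX40, was at 5.00, 1.62 and 6.67 CPM in CD8 T cells and 72.5, 90.5 and 147 CPM in CD4 T cells. Maf, a transcription factor of helper cells, was at 16.8, 11.3 and 18.7 CPM against 162, 90.5 and 232 CPM (log2 difference -3.38 ± 0.16, edgeR adjusted p = 6.58e-14). Cd40lg, which gives help to B cells, differed by -4.55, and Foxp3 of regulatory T cells by -3.81. St8sia6, a sialyltransferase, differed by -4.00, Tmem64 by -2.44, Ly6a (Sca-1) by -2.71 and Trat1, a T cell receptor adaptor, by -2.80. Tbc1d4, which takes part in glucose transporter traffic, differed by -2.67, Trib2 by -1.56 and Il1rl1, the interleukin 33 receptor, by -5.78. CD4 T cells hold regulatory and helper cells, whose shares were not separated here.

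Parts of the activation, checkpoint and S100 lists were lower in CD8 T cells. In the T cell receptor activation list 0 of 15 tested genes were higher and 8 were lower in CD8 T cells, including Il2ra (-3.80), Icos (-1.63), Irf4, Batf and Tnfrsf9. Irf4 (edgeR adjusted p = 0.0478) lost the threshold in 6 of 10 alternatives, and at 2 hours it was at 37.2 CPM in CD8 and 34.8 CPM in CD4 T cells, the other way. In the checkpoint list 0 of 7 were higher and 5 were lower, Pdcd1, Ctla4, Tox, Btla and Cd200. Pdcd1 was at 10.9, 53.4 and 16.0 CPM in CD8 and 34.1, 27.9 and 52.2 CPM in CD4 T cells, so that the 2-hour library went the other way, and it lost the threshold in 3 of 10 alternatives. In the S100, galectin and annexin list 0 of 15 were higher and 7 lower. Anxa2 lost the threshold in 5 of 10 alternatives, S100a11 in 4 of 11, S100a10 in 3 of 11 and Anxa5 in 3 of 10. S100a13 lost it in 3 of 11 and turned in 1. At 2 hours S100a11 went the other way, at 173 CPM in CD8 and 153 CPM in CD4 T cells. S100a4 was at 50.9, 58.3 and 128 CPM in CD8 T cells and 236, 62.7 and 618 CPM in CD4 T cells, a log2 difference of -2.01 that missed the threshold with DESeq2 (adjusted p = 0.282). In the immediate-early list 1 of 24 was higher, the phosphatase Dusp2, and 6 were lower, among them Fosb, Junb and Dusp1. Junb (edgeR adjusted p = 0.0464) lost the threshold in 7 of 11 alternatives and Dusp1 in 5 of 11. Of the T cell receptor complex list, 0 of 17 were higher and 4 were lower, Trac, Lat, Cd28 and Cd5, of which Lat lost the threshold in 5 of 11 alternatives. Trac, Cd3d, Cd3e, Cd3g and Trbc2 are genes of the rule that chose the cells, so the Trac call is not independent of it.

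Homing and quiescence genes were divided. Of the naive and central memory list 2 of 18 were higher in CD8 T cells and 6 were lower, S1pr1, Satb1, Igfbp4, Ets1, Foxo1 and Ly6c1. Of 11 alternatives each, Satb1 (edgeR adjusted p = 0.0496) lost the threshold in 6, DESeq2 among them (adjusted p = 0.169), and turned in 1, while S1pr1 lost it in 4 and Foxo1 in 3. Dapl1, one of those higher, was at 273, 69.6 and 135 CPM in CD8 T cells against 187, 13.9 and 70.8 CPM in CD4 T cells (log2 difference 0.83). Of the chemokine receptor, integrin and egress list 3 of 20 were higher, among them Cxcr5 and Selplg, and 5 were lower, Ccr2, Ccr4, S1pr1, Itgb1 and Itgb7. Itgb7 RNA lost the threshold in 4 of 11 alternatives (DESeq2 adjusted p = 0.796) and turned in 1, and at 2 hours it was higher in CD8 T cells, at 66.4 against 48.8 CPM. The ITGB7 antibody was higher on CD8 than on CD4 T cells, with means of 33.4 and 10.2 UMIs per cell at 2 hours and 42.4 and 29.1 at 3 days. At 2 hours Cxcr5 also went the other way. MHC class I genes gave 2 of 15 higher, H2-Q6 and the regulator Nlrc5, and 0 lower, and Nlrc5 lost the threshold in 4 of 10 alternatives. The survival list gave 2 of 18 higher, Pim2 and Pdcd4, and 4 lower, Bcl2a1b, Bcl2a1d, Pim1 and Birc3. In the tissue residency list 0 of 7 were higher and 3 were lower, Rgs1, Rgs2 and Bhlhe40. The interferon list gave 0 of 27 higher and 4 lower, Isg15, Ifi27l2a, Slfn2 and Slfn5. Rgs1 and Slfn2 each lost the threshold in 5 of 11 alternatives and Birc3 in 4 of 11, and Bcl2a1b went the other way at 2 hours.

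Markers of other cells moved with this comparison too. Of 9 tested B cell markers 4 were lower in CD8 T cells, Cd74, H2-Aa, H2-Ab1 and H2-Eb1, and of 8 monocyte and macrophage markers 2 were lower, Apoe and Spp1. Without the 3-day library the log2 differences of H2-Ab1, Cd74 and Apoe turned to 0.31, 0.02 and 0.32, with edgeR adjusted p of 0.932, 0.991 and 0.975, so that their direction rested on that library. Of 4 tested NK markers 2 were higher, Eomes and Gzma, which CD8 effector cells also express. Of 2 tested gamma-delta markers Trdc was higher (log2 difference 1.31, edgeR adjusted p = 0.0348), and it lost the threshold in 5 of 9 alternatives. Of 3 tested endothelial and epithelial markers 2 were lower, Epas1 and Pecam1, and Pecam1 lost the threshold in 4 of 11. None of the 11 tested neutrophil markers passed the threshold, but S100a8 and S100a9 are among them and the rule limits both. That count is therefore partly set by the rule. The part of other cells in the comparison was not tested. Without the naive library 158 genes were higher and 150 lower in CD8 T cells, without the 3-day library 247 and 221, and without the 2-hour library 285 and 442. DESeq2 called 161 and 163 genes, all among those of edgeR.

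Most Ccl5 RNA came from a minority of CD8 T cells. CD8 T cells with a Ccl5 UMI at equal depth held more RNA of many effector and S100 genes and of Itgb1, and less of Ccr7 and Lef1, than those without. CCL5 is a chemokine that memory CD8 T cells store as ready message and release quickly. At least 12 Ccl5 UMIs were held by 32 of 193 cells in naive lung, 47 of 393 at 2 hours and 97 of 383 at 3 days. These cells held 92.9%, 90.2% and 96.1% of the Ccl5 UMIs, and the highest cell held 255, 133 and 208.

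To set the libraries beside each other, each cell was thinned to 500 UMIs. The share of CD8 T cells with a Ccl5 UMI was then 19.2% in naive lung (95% Clopper-Pearson interval 13.9% to 25.4%), 21.6% at 2 hours (17.7% to 26.0%) and 21.9% at 3 days (17.9% to 26.4%). The 3 intervals overlapped. In CD4 T cells the share was 8.38%, 3.67% and 6.73%. It was 96.5%, 99.5% and 94.3% in NK cells, which use the gene constantly, and 1.48%, 1.95% and 0.969% in B cells, which should lack it. Median UMIs of NK and B cells were 821 and 786 at 2 hours. The share in CD8 T cells lay well above that in B cells, the background of free RNA. Without thinning it was 48.2%, 25.2% and 43.9%. The likeness of the libraries depended on the setting. With at least 2 Ccl5 UMIs asked for, the shares were 8.81% (5.22% to 13.7%), 15.8% (12.3% to 19.8%) and 16.7% (13.1% to 20.8%). Without the NK gene rule the shares were 24.3% (18.8% to 30.6%), 22.9% (18.9% to 27.4%) and 32.8% (28.5% to 37.3%), and with every step of the rule on thinned cells 29.6% of 27, 15.2% of 92 and 46.8% of 62 cells. In the latter pair of settings the 3-day value lay above the interval of the 2-hour value.

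**Figure D2:**
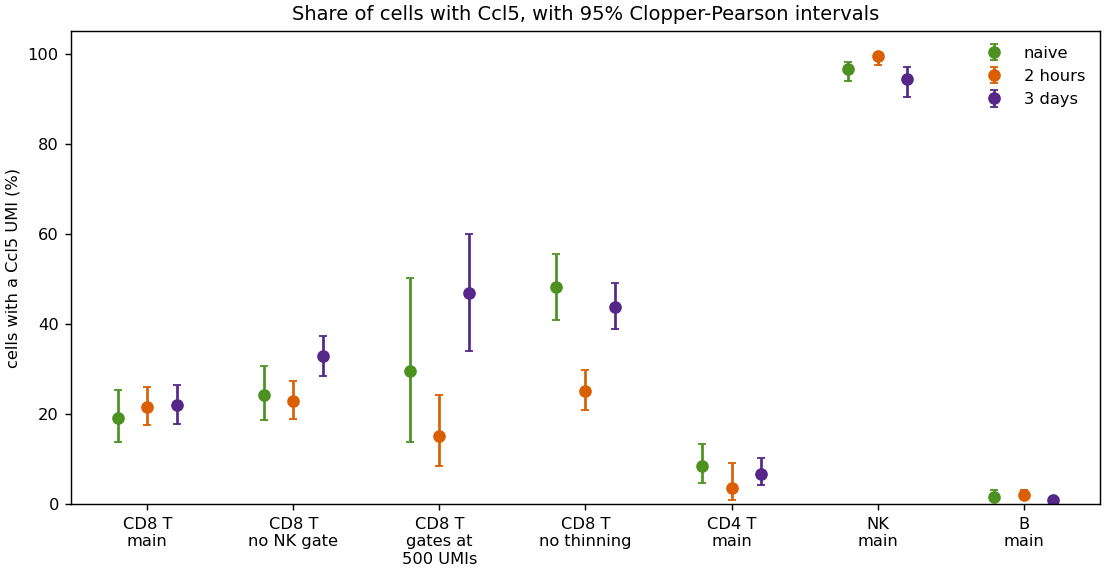
Share of cells with a Ccl5 UMI, in percent, for each group of cells and library, with 95% Clopper-Pearson intervals for counting error. CD8 T cells stand between 19.2% and 21.9% at 500 UMIs, above CD4 T and B cells and below NK cells, and without thinning the 2-hour value (25.2%) lies below the other libraries.

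CD8 T cells with and without Ccl5 at 500 UMIs (37 and 156 cells in naive lung, 85 and 308 at 2 hours, 84 and 299 at 3 days) were compared by description. The groups were cut from the same cells, so no test is given. Their depth was alike, with medians of 11893 and 11022 UMIs in naive lung, 1630 and 1388 at 2 hours, and 9431 and 9411 at 3 days. Over 8291 genes, the median of the 3 log2 ratios of CPM + 10 was above 1 for 105 genes (1.27%) and below -1 for 47 (0.567%).

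In the effector and memory list 19 of 28 genes were above 1, or 67.9%, with a list median of 1.49. Gzma was at 417 CPM in cells with Ccl5 and 16.5 CPM in cells without in naive lung, 587 and 74.0 CPM at 2 hours, and 217 and 7.79 CPM at 3 days. Gzmb was at 161 and 5.13, 227 and 17.4, and 155 and 24.0 CPM. Klrc1, which encodes an NKG2A receptor chain, was at 85.1 and 3.42 CPM in naive lung and 129 and 8.80 CPM at 3 days. At 2 hours it had 15 UMIs in cells with Ccl5 and 0 in cells without. Eomes was at 35.8 and 9.69, 31.6 and 4.35, and 97.2 and 14.2 CPM. Tbx21, which encodes T-bet, was at 87.3 and 7.98 CPM in naive lung and 41.7 and 6.43 CPM at 3 days, but had only 1 and 2 UMIs at 2 hours. Nkg7 was at 634 and 180, 619 and 240, and 757 and 212 CPM. Each of these genes was higher in cells with Ccl5 in all 3 libraries, apart from Tbx21 at 2 hours, where the counts were too few. Klrd1, in contrast, was at 284 and 291, 189 and 168, and 249 and 189 CPM, and so was spread over both kinds of CD8 T cell although it was among the genes that separated CD8 from CD4 T cells.

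In the S100, galectin and annexin list 10 of 15 genes were above 1, or 66.7%. Lgals1, which encodes galectin 1, was at 636 and 77.5, 587 and 61.0, and 440.5 and 79.9 CPM. S100a6 was at 179 and 50.7 CPM in naive lung, 985 and 43.5 CPM at 2 hours and 544 and 121 CPM at 3 days. S100a4 was at 137 and 29.1, 202 and 8.71, and 336 and 72.1 CPM. Cells with Ccl5 were higher in every library for all of them.

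Trafficking genes divided the cells in both directions. In the chemokine receptor, integrin and egress list 7 of 20 genes were above 1, among them Cxcr3, Ccr2, Cx3cr1, S1pr5, Itgb1 and Itgal, and 2 were below -1, the gut-homing receptor Ccr9 and Itgae, which encodes CD103. Ccr9 was at 2.24 and 37.1 CPM in naive lung and 6.31 and 42.3 CPM at 3 days, but at 44.2 and 43.5 CPM at 2 hours. Itgae was at 13.4 and 17.7 CPM in naive lung, within counting error, and at 5.05 and 24.0 CPM at 3 days. Itgb1, the β1 integrin chain, was at 199 and 38.2, 271 and 39.2, and 231 and 80.9 CPM. Ccr7 was lower in cells with Ccl5, at 356 and 505, 480 and 949, and 189 and 408 CPM. Lef1 was at 918 and 1733, 341 and 642, and 218 and 467 CPM. Only 2 of 17 naive and central memory genes were below -1, Igfbp4 and Dapl1, since Ccr7 and Lef1 differed by less. Igfbp4 was at 15.7 and 59.3, 12.6 and 128, and 27.8 and 169.9 CPM. Ifngr2, a chain of the interferon gamma receptor, was at 26.9 and 118, 25.2 and 235, and 12.6 and 70.7 CPM. The markers of neutrophils, monocytes and macrophages, and B cells had 0 of 9, 0 of 11 and 0 of 7 genes past 1 in either direction. Since the rule limits S100a8, S100a9, Lyz2 and its B cell genes in every member, this evenness is partly set by it. Of the NK markers, Eomes and Gzma were above 1 among 4, and the single gamma-delta gene measured, Trdc, was above 1. The part of remaining NK or gamma-delta cells was not tested. Of the other lists, 2 of 5 checkpoint genes (Pdcd1 and Entpd1), 3 of 11 cell cycle genes (Top2a, Stmn1 and Hmgb2) and 2 of 11 T cell receptor activation genes (Nr4a2 and Tnfrsf9) were above 1. In the tissue residency list Rgs1 was above 1 and Itgae below -1 among 7, and in the cytokine receptor list 2 of 19 were above 1 and 1 below -1. There were 1 of 23 immediate-early and 1 of 18 survival genes above 1 and 1 of 12 heat shock genes below -1. In the T cell receptor complex (19), interferon (26), MHC class I (15) and glycolysis (19) lists 0 genes were past 1 in either direction.

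**Figure D3:**
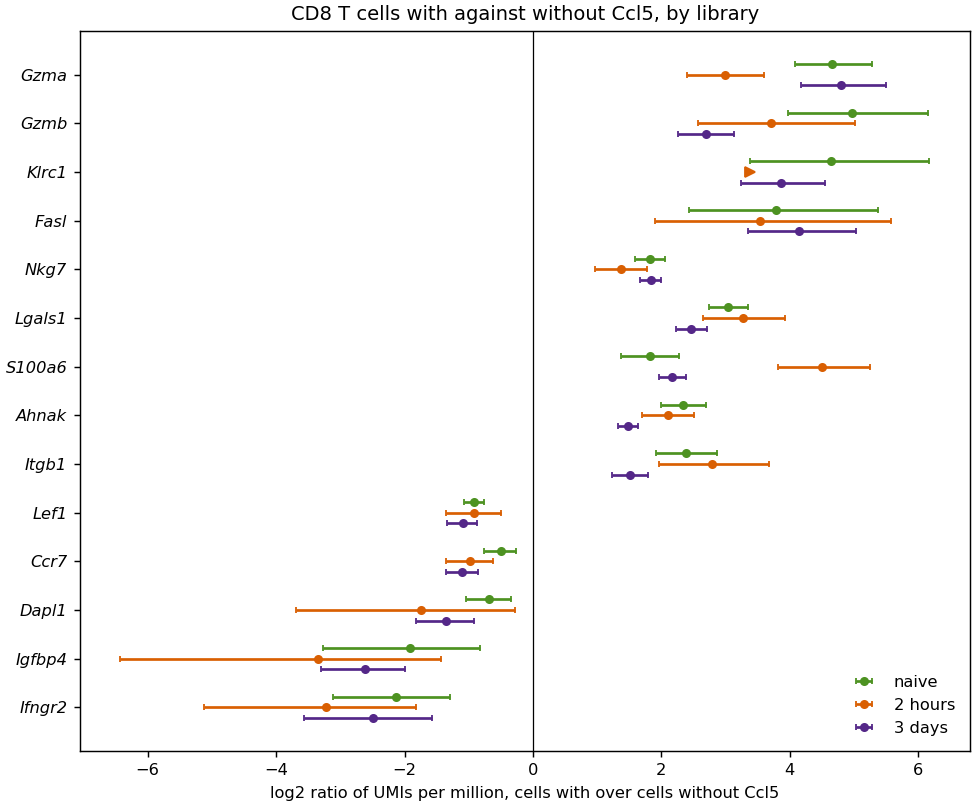
Log2 ratio of CPM in CD8 T cells with Ccl5 over CD8 T cells without it, for 14 genes, in each library with 95% counting intervals. The arrowhead at Klrc1 marks a lower bound, since it had 0 UMIs in cells without Ccl5 at 2 hours. The 9 upper genes lie above 0 and the 5 lower genes below 0 in all 3 libraries.

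Surface CD44, counted with antibodies in the 2-hour and 3-day libraries, was higher on CD8 T cells with Ccl5 than on those without. Of 277 antibody features, those against CD8, CD4, CD3, the T cell receptor, CD69, CD103, CD127, CD122, KLRG1, CXCR3 and PD-1 were at or near 0 in CD8 T cells. The CD8 antibody had 0 UMIs over 393 and 383 cells, which allows at most 0.00939 and 0.00963 UMIs per cell, so the label could not be checked by protein. CD44 had a median of 10 UMIs per cell in CD8 T cells with Ccl5 and 1 in those without at 2 hours, and 11 and 1 at 3 days. The means were 12.3 and 4.14 at 2 hours (95% counting intervals 11.6 to 13.1 and 3.91 to 4.37) and 11.3 and 4.84 at 3 days (10.6 to 12.1 and 4.60 to 5.10). In CD4 T cells the median was 2 at 2 hours and 7 at 3 days. The Cd44 RNA was at 69.4 and 34.8 CPM at 2 hours, from 11 and 16 UMIs with a log2 interval of -0.26 to 2.19, and at 191 and 106 CPM at 3 days.

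The antibody against integrin β7 (ITGB7), which pairs with α4 or αE in gut-homing and tissue-resident cells, showed the opposite division and was named after its values were seen. Its median was 2 UMIs in CD8 T cells with Ccl5 and 30 in those without at 2 hours, and 2 and 36 at 3 days. The means lay closer, at 20.2 and 37.0 at 2 hours and 12.1 and 50.9 at 3 days. The Itgb7 RNA did not divide in this way, at 88.4 and 58.8 CPM at 2 hours and 124 and 140.5 CPM at 3 days. CD49f (integrin α6), also named after its values were seen, had medians of 9 and 4.5 UMIs at 2 hours and 22 and 11 at 3 days. The isotype control antibody with the most UMIs, rat IgG1 lambda, gave means of 0.473 and 0.316 per CD8 T cell. CD45R, a B cell form of CD45, was at means of 0.430 and 0.162 in CD8 T cells and 19.4 and 17.8 in B cells. The total of antibody UMIs per cell was 45.6 and 49.0 in cells with and without Ccl5 at 2 hours and 50.3 and 76.2 at 3 days, and ITGB7 alone made up 69.2% and 60.1% of the antibody UMIs of all CD8 T cells.

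**Figure D4:**
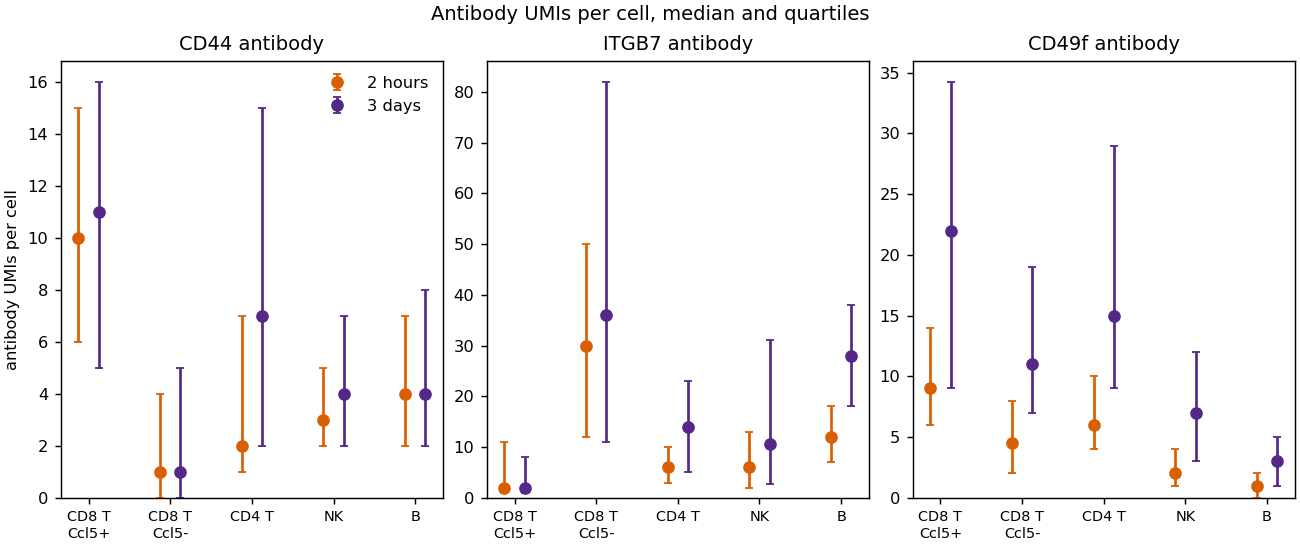
Antibody UMIs per cell for CD44, ITGB7 and CD49f in the 2-hour and 3-day libraries, as medians with quartiles, in CD8 T cells with (Ccl5+) and without (Ccl5-) Ccl5 and in CD4 T, NK and B cells. CD44 medians are 10 and 11 in cells with Ccl5 against 1 in those without, and ITGB7 medians are 2 against 30 and 36.

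At 2 hours of reperfusion, CD8 T cells had more RNA of 8 of 23 immediate-early genes, 3 of 12 heat shock genes and the genes Klf2, Cxcr4, Pim1 and Pdcd4 than at 3 days. The last 4 were also higher at 2 hours in CD4 T cells. Both libraries were counted with the same program version, and each is a single pool, so the values are descriptions. Of 8292 genes with at least 50 UMIs in CD8 T cells, 342 were more than 2-fold higher at 2 hours (4.12%) and 406 more than 2-fold higher at 3 days (4.90%), on the scale of log2(CPM + 10). The median log2 ratio over all genes was -0.12, beside which the medians of the lists are given. Of the 342 genes, 200 were also past 2-fold in the same direction in CD4 T cells, or 58.5% of the 342 and 46.7% of the 428 in CD4 T cells. Of the 406 genes, 200 were, or 49.3% of the 406 and 16.8% of the 1192 in CD4 T cells. The CD4 T cells at 2 hours held 143579 UMIs together, against 617789 in CD8 T cells. Low genes can therefore pass 2-fold in CD4 T cells on few UMIs, and the CD4 counts carry that limit. Of the calls past 2-fold, 45.7% were higher at 2 hours, and this split moved to 58.1% with TMM scaling, 32.9% with CPM + 1, 30.9% outside ribosomal, mitochondrial and receptor genes, 36.5% in cells with at least 2 Cd8 UMIs and 69.9% after subtraction of the CD4 ratio.

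In the immediate-early list 8 of 23 tested genes were more than 2-fold higher at 2 hours and 0 at 3 days, with a median log2 ratio of 0.43 (0.38 in CD4 T cells). These genes are switched on within minutes by many stimuli. Fos was at 29.5 CPM in naive lung (95% interval 22.8 to 37.7), 363 CPM at 2 hours (317 to 413) and 59.0 CPM at 3 days (51.5 to 67.3), a 6.15-fold ratio of 2 hours to 3 days. In CD4 T cells it was at 59.1, 286 and 75.0 CPM. Jun, its partner in the AP-1 factor, was at 57.7, 290 and 63.3 CPM, and Junb at 505, 1486 and 656 CPM. Only the 2-hour library was high for these genes, and its intervals did not overlap those of the others. Ier2 was at 199.9, 497 and 213 CPM, the phosphatase Dusp1 at 46.3, 179.7 and 71.5 CPM, and Ppp1r15a of the stress response at 62.3, 199 and 94.0 CPM. Ppp1r15a was only just past 2-fold, with a log2 ratio of 1.008. It fell below with called doublets removed (0.999) and with at least 2 Cd8 UMIs (0.858). Btg1, an antiproliferative gene of resting lymphocytes, was at 1153, 4335 and 1211 CPM in CD8 and 1279, 4778 and 1425 CPM in CD4 T cells. Zfp36l1, an RNA-binding protein that destabilizes messages, was at 114, 424 and 190.3 CPM in CD8 but 156, 299.5 and 320 CPM in CD4 T cells. The list's UMIs were spread over the cells, with 5.63% of them in the 5 highest cells at 2 hours.

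Of 12 heat shock genes 3 were more than 2-fold higher at 2 hours and 0 at 3 days, the HSP70 gene Hspa1b and the cochaperones Dnajb1 and Dnaja1. Dnajb1 was at 42.3, 248 and 62.5 CPM in CD8 and 48.1, 251 and 70.0 CPM in CD4 T cells. Hspa1b was at 40.4, 172 and 53.1 CPM in CD8 and 60.9, 376 and 115 CPM in CD4 T cells. The rest of the list did not pass 2-fold, and its median was 0.09.

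**Figure D5:**
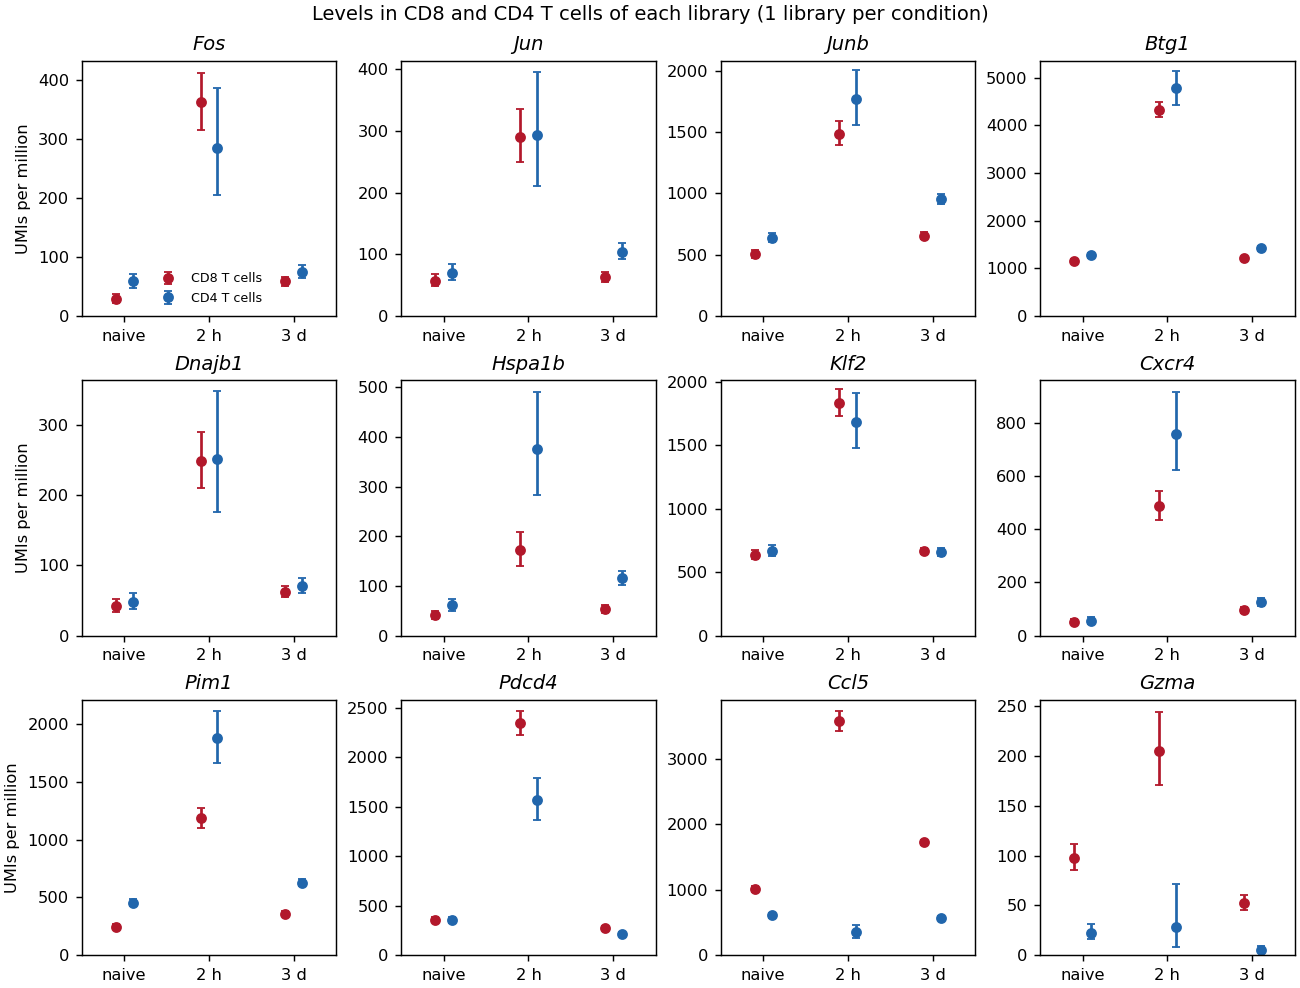
Levels of 12 genes in CPM (y axis, from 0) in the summed CD8 (red) and CD4 (blue) T cells of each library, with exact 95% Poisson intervals. Each point is 1 library of 2 pooled mice. The 2-hour point is the highest in CD8 T cells for each gene, and in CD4 T cells for each gene but Ccl5, which stood at 348 CPM there, while the CD4 interval of Gzma at 2 hours overlaps that of the naive library.

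Single genes of quiescence and homing were higher at 2 hours too. Klf2, a quiescence factor that drives S1pr1, was at 636, 1832 and 666 CPM in CD8 and 670, 1685 and 656 CPM in CD4 T cells. Ccr7 was at 475, 829 and 361 CPM in CD8 T cells and 440, 529 and 334 CPM in CD4 T cells. These were the 2 of 17 naive and central memory genes past 2-fold, and none was past it in the other direction. The chemokine receptor Cxcr4 was at 51.8, 487 and 95.3 CPM in CD8, 55.4, 759 and 125 CPM in CD4 T cells and 212, 2278 and 366 CPM in NK cells. Of 20 genes of the chemokine receptor, integrin and egress list, these 2 receptors were higher at 2 hours and 4 were higher at 3 days, Cxcr5, S1pr5, Itgal and Itgb2. Itgal and Itgb2, the chains of the LFA-1 integrin used for arrest on endothelium, were at 116, 51.8 and 164 CPM and at 73.2, 53.4 and 153.5 CPM. Both were lowest at 2 hours in CD4 T cells as well.

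Of the survival list 4 of 18 genes were higher at 2 hours and 0 at 3 days (median 0.46). Pdcd4, a translation inhibitor, was at 355, 2344 and 277 CPM in CD8, 350.3, 1567 and 214 CPM in CD4 and 455, 2253 and 322 CPM in NK cells. The kinase Pim1 was at 246, 1188 and 358.5 CPM in CD8 and 454, 1880 and 627 CPM in CD4 T cells. Fas, the death receptor, was at 32.3, 176 and 39.2 CPM in CD8 and 30.5, 251 and 42.2 CPM in CD4 T cells, and Pim2 was at 60.0, 110 and 45.4 CPM in CD8 T cells. All were higher at 2 hours in both T cell types.

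Of the effector list 2 of 29 genes were higher at 2 hours and 2 higher at 3 days, with a median of -0.49. These counts are near the 4.12% and 4.90% over all genes, and the values of single members are descriptions. Ccl5 was 2.08-fold higher at 2 hours than at 3 days in CD8 T cells, while CD4 T cells had 348 CPM at 2 hours and 562 CPM at 3 days. Gzma was at 206 CPM at 2 hours and 52.1 CPM at 3 days (3.95-fold). It was at 27.9 and 5.38 CPM in CD4 T cells. Cd44 was at 43.7 CPM at 2 hours (28.8 to 63.6) and 124 CPM at 3 days (113 to 136), and Zeb2 at 24.3 and 84.9 CPM. Zeb2 was higher at 3 days in CD4 T cells as well, at 6.96 and 67.5 CPM. In CD8 T cells without Ccl5 it was at 8.71 and 71.8 CPM, and in those with Ccl5 at 69.4 and 134 CPM. The part of RNA from other cells in the Zeb2 values was not tested. Nkg7 and Gzmb, at 337 and 327.5 CPM and at 71.2 and 51.8 CPM, had overlapping intervals. In the interferon list 4 of 26 were higher at 2 hours and 0 at 3 days, Ifit3, Ifi27l2a, Ifi208 and Rtp4. Ifi27l2a was at 467, 459.7 and 175 CPM in CD8 and 941, 1240 and 743 CPM in CD4 T cells. The others had few UMIs, such as 13 of Ifit3 at 2 hours. Rtp4 was at 25.0 CPM in naive lung, 43.7 CPM at 2 hours (28.8 to 63.6) and 11.2 CPM at 3 days (8.08 to 15.2). In the checkpoint list 3 of 5 were higher at 2 hours, Pdcd1, Ctla4 and Btla. Ctla4 was at 57.7, 85.8 and 18.4 CPM in CD8 T cells and 151, 188 and 144 CPM in CD4 T cells. In the residency list 2 of 7 were higher at 2 hours, Rgs1 and Ahr, and in the T cell receptor activation list 2 of 11 were higher, Myc and Batf, and 2 lower, Nr4a2 and Nr4a3.

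The genes with the largest ratios were of other kinds. At 2 hours these were Bc1, a short noncoding RNA (27.7, 515 and 17.1 CPM), the replication-dependent histone genes Hist1h3e, Hist1h1b, Hist1h4h, Hist1h4c and Hist1h2ae, Pdcd4, Slc39a1, Slc24a5 and Rpgrip1. Of the Hist1h1b UMIs at 2 hours, 91.4% lay in 5 cells, so its level does not describe the population. Bc1 was alike in CD4 T cells (29.2 and 522 CPM in the naive and 2-hour libraries). The cell cycle list had 2 of 11 genes higher at 2 hours, Top2a and Tubb5, and its 5 highest cells held 27.9% of its UMIs there and 70.5% of the 44 Top2a UMIs. At 3 days the largest ratios belonged to Cybb, Lyz2, Fn1, Saa3, Csf1r, Apoe, Btbd9, Ifitm1, Neurl3 and Clec4a1. Most of them are genes of monocytes and macrophages, and Lyz2 is part of the rule. Cybb, Fn1, Saa3, Csf1r and Clec4a1 had 0 UMIs in the CD8 T cells at 2 hours. They were at least 20.1-fold, 18.1-fold, 14.2-fold, 10.0-fold and 6.65-fold higher at 3 days, against a floor of 3 UMIs over the summed cells, or 4.86 CPM. Of the monocyte and macrophage list, 8 of 11 genes were higher at 3 days, with a median of -1.51 in CD8 and -1.87 in CD4 T cells. Genes entered with at least 50 UMIs over all 3 libraries, and Csf1r, with 0, 0 and 182 UMIs, passed only through the 3-day library. This count and median are therefore partly set by the filter, which the sums of all 17 genes above did not use. The part of these genes in the other differences was not tested.

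Between 3 days and the naive library, the CD8 T cells differed most by genes that also differed in CD4 T cells. Of 8292 genes, 168 were more than 2-fold higher at 3 days (2.03%) and 904 were more than 2-fold higher in naive lung (10.9%). Of the 168, 127 were also past 2-fold in CD4 T cells, and of the 904, 721 were (79.8%). The naive side was led by Cmss1 (1474 CPM in naive lung, 9.71 at 2 hours and 10.1 at 3 days), Gphn (802, 8.09 and 8.01), Gm11290 (249, 0 and 0), Maml2 (954, 17.8 and 28.6) and Camk1d (1186, 38.8 and 40.0). These genes were high in naive CD4 T and NK cells too, with Cmss1 at 1399 and 1451 CPM there. By default Cell Ranger 7.1.0 also counts reads in introns and 6.0.0 does not, and the part of this difference in the values was not tested.

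On the 3-day side, 5 of 15 S100, galectin and annexin genes were more than 2-fold higher than in naive lung and 0 were lower, S100a4, S100a6, Lgals3, Anxa1 and Ahnak. S100a6 was at 76.8 CPM in naive lung (65.7 to 89.3) and 210 CPM at 3 days (196 to 226), and in CD4 T cells at 209.6 and 491 CPM. Of the effector list 2 of 29 were higher, the chemokines Ccl3 and Ccl4, and 0 were lower. Of the naive and central memory list 1 of 17 was higher, Igfbp4, and 5 were lower, Lef1, Bach2, Foxp1, Foxo1 and Bcl2. The interferon list had 0 of 26 higher and 3 lower, Ifi27l2a, Ifi213 and Oasl2, near the 10.9% of all genes that were higher in naive lung. Neutrophil markers were higher for 7 of 9 genes, monocyte and macrophage markers for 9 of 11 and B cell markers for 5 of 7, and the sums of these lists stand above. Their part in the differences was not tested.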

How the data were processed

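Single-cell RNA and, in 2 of 3 libraries, antibody tags were measured. The deposited values were UMI counts per gene and cell. The authors aligned reads to mm10 with Cell Ranger 6 and used Seurat 4, per the labels; the file headers name Cell Ranger 7.1.0 (naive) and 6.0.0. A 3′ kit is named in the methods, but the labels also mention a 5′ kit. The study's filter was applied, so that a cell was kept at over 200 genes and below 6000, with less than 10% of UMIs mitochondrial and a total below 25000. Members and gene lists were chosen with earlier results of these data known. Libraries were compared as CPM of summed cells (log2 of CPM + 10, 50 or more UMIs, 2-fold, no test). CD8 and CD4 T cells were compared with edgeR 4.0.16 (R 4.3.3, TMM, filterByExpr, library block, adjusted p under 0.05), tested first on simulated data, with DESeq2 1.42.0 as an alternative. Scrublet ran in scanpy 1.11.5, and each cell was thinned with a fixed seed. Named genes were the 10 with the smallest p in each direction, the 10 with the largest ratio among those past 2-fold in each direction, and members of the lists. Called doublets were kept, and left out as an alternative. A few members of the lists are counted but not reported by name here.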

Additional observations from a re-analysis of the deposited data

Results flagged for a closer look

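The antibody counts were not part of the comparisons of RNA and were flagged because they lay above every isotype control antibody in CD8 T cells. CD44 was at a mean of 5.91 UMIs per CD8 T cell at 2 hours and 6.26 at 3 days. ITGB7 was at 33.4 and 42.4, and CD49f at 7.44 and 18.9. Mac2 (galectin 3), a protein abundant in macrophages, was at 1.99 at 3 days and 0.206 at 2 hours. In CD4 T, NK and B cells at 3 days Mac2 was at 2.89, 2.36 and 7.70. The highest isotype control was at 0.473 and 0.316. ITGB7, CD49f and Mac2 were named after their values were seen.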

How the results depend on the processing

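No paired analysis was possible because the conditions share only replicate number 1, with 1 library each. The CD8 and CD4 T cells of a library were paired in their own comparison. The share of CD8 T cells was 6.88% in the naive library without the cell filter, 1.34% at 2 hours with at least 2 Cd8 UMIs, 1.11%, 0.937% and 0.745% (naive, 2 hours, 3 days) with gates at 500 UMIs, and 5.49% at 3 days without the NK gene gate. The share with Ccl5 was 12.95% in the naive library at 300 UMIs, 48.2% and 43.9% (naive, 3 days) without thinning, 8.81%, 15.8% and 16.7% with at least 2 Ccl5 UMIs, 29.6%, 15.2% and 46.8% with gates at 500 UMIs, 32.1%, 16.1% and 48.4% with such gates and no NK gene gate, and 32.8% at 3 days without the NK gene gate. The settings on the NK gene gate, those on the Ccl5 gates and cells without Ccl5 were chosen after seeing the data.

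Between 2 hours and 3 days, genes past 2-fold were 578 higher and 1177 lower with CPM + 1, and 215 and 234 at 200 or more UMIs. Subtraction of the CD4 ratio gave 733 higher, and CPM outside ribosomal, mitochondrial and receptor genes and at least 2 Cd8 UMIs gave 739 and 718 lower. Between 3 days and naive, 357 were higher with CPM + 1, 63 higher and 588 lower at 200 or more UMIs, 273 higher outside ribosomal genes, and 14 higher and 62 lower after subtraction. Subtraction also turned the log2 ratio of 2 hours to 3 days for Slc39a1 (-0.059), Slc24a5 (-0.36), Rpgrip1 (-0.063), Fn1 (0.49), Csf1r (0.17), Apoe (1.24), Neurl3 (0.46), Zeb2 (0.72), Cd44 (1.34), Cxcr4 (-0.27), Itgal (0.55), Itgb2 (0.53), Ier2 (-0.11), Ppp1r15a (-0.20), Hspa1b (-0.10), Fas (-0.40) and Pim2 (-0.46). By construction it removes what both T cell types share. Subtraction also adds the counting error of the CD4 sums, which was large for low genes at 2 hours, where CD4 T cells held 143579 UMIs. Over the 45 genes named there, 185 values stayed past 2-fold, 23 kept their direction below 2-fold and these 17 turned.

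For CD8 against CD4 T cells, genes higher and lower in CD8 were 161 and 163 with DESeq2, 153 and 259 with at least 2 coreceptor UMIs and 89 and 52 with cells thinned to 500 UMIs, where only 1699 genes were tested. Leaving out 1 library gave 158 to 285 higher and 150 to 442 lower. Cells without Ccl5 gave 316 and 434, with 282 and 378 genes shared with the main result, and no NK gene gate 391 and 478. Of 211 values for the 20 genes with the smallest p, 210 stayed past the threshold, the exception being Gzma in cells without Ccl5 (log2 1.13, edgeR adjusted p = 0.0526). Over 94 list genes 762 stayed, 204 lost the threshold and 6 turned. Leaving out 1 library gave log2 differences of -1.82 to 0.31 for H2-Ab1, -1.86 to 0.017 for Cd74 and -0.70 to 0.32 for Apoe, positive only without the 3-day library. The others that turned were Itgb7 (0.025) and S100a13 (0.43) when thinned, and Satb1 (0.089) with at least 2 coreceptor UMIs. The cause was not tested. Depth at 2 hours limits every value for genes of low count there.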

Other observations

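Receptor chains could not be followed in the CD8 T cells. Trbv genes had 55 UMIs in naive lung, 29 at 2 hours and 41 at 3 days over all CD8 T cells, too few to describe clones. The most frequent were Trbv12-2 with 13 UMIs, Trbv15 with 4 and Trbv2 with 5.

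Mki67, a marker of cycling cells, had 18 UMIs in 3 cells of naive lung, 13 UMIs in 8 cells at 2 hours and 15 UMIs in 10 cells at 3 days. Top2a, another such gene, was found in 9, 16 and 19 cells.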
